A study of Mus musculus with 24 samples.

Results

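The cell cycle and DNA replication genes followed here are 43 mouse genes that act in S phase or mitosis. They were taken by gene symbol from the platform's annotation, and a gene with several probe sets was read from the probe set with the highest mean. Of the 43, 42 were measured, among 18193 genes in all. No probe set carries Ccnb1 as its single symbol, and that gene was not analysed here. The symbols were sorted into 9 role lists. The rule picks members by symbol alone. The members and lists were, however, chosen with earlier results of these data known.

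The data are 24 arrays of cultured mouse retinal endothelial cells in 8 groups of 3. The cells were immuno-purified from adult mice (mixed gender, C57Bl6/129 mixed background) crossed to the Immorto-mouse, so both genotypes have the temperature-sensitive large T antigen of SV40 under the interferon-responsive H2Kb promoter. Fz4-/- cells lack frizzled-4, the receptor on endothelial cells for the secreted ligand Norrin, and wild type cells have it. RNA was made at 37 °C without interferon, a condition meant to leave the T antigen inactive, and the T antigen's own level was not read here. Fz4-/- and wild type cells were each grown on gelatin, or kept for 24 hours in 1% serum and then for 6 hours on Matrigel, a basement membrane extract, in 1% serum. They were also grown together with human HEK293 cells that make Norrin or with control HEK293 cells, and per the labels about as much human as mouse RNA entered those arrays. The labels do not say how many lines of each genotype were used, nor whether replicates are separate cultures, so the p-values cover the array-to-array spread alone, which may be technical.

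A dividing cell copies its DNA in S phase and parts the copies in mitosis. Before S phase the licensing factors Cdc6 and Cdt1 load the Mcm helicase onto origins, and cyclin E with its kinase starts replication. Cyclins A and B with Cdk1 then carry the cell into mitosis, where Aurora and Polo kinases, kinetochore proteins and kinesins build the spindle, and the anaphase-promoting complex ends the phase by tagging cyclin B and securin for destruction. E2F factors drive transcription of the replication genes, and the MuvB complex with B-Myb and Foxm1 drives that of the mitosis genes, so each set turns on together in cycling cells. Large T antigen binds the retinoblastoma proteins that hold E2F in check.

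Values are log2 probe set intensities, so a difference of 1 is a doubling of signal. Levels of different probe sets were set against each other only coarsely. This was done to pick the highest probe set or member, for means of marker lists and to mark dim signals. Fzd4, the deleted gene, read 5.50, 5.08 and 4.61 in the Fz4-/- arrays on gelatin, against 9.09, 8.58 and 8.44 in the wild type arrays. It was lower in Fz4-/- cells by a log2 difference of -3.64 ± 0.22 on gelatin (SE, n = 3, adjusted p = 7.77e-07) and -3.74 on Matrigel. In 6 groups replicate 1 stood apart. The standard deviation of its gene differences from replicates 2 and 3 was 0.299 to 0.354 there, against 0.147 to 0.193 between replicates 2 and 3. In the Fz4-/- co-cultures every pair of arrays lay between 0.182 and 0.226. Results on the single cultures are therefore given with all arrays and with replicates 2 and 3 alone. Means over the lists of endothelial markers lay between 10.59 and 11.47 in the single cultures, while the pericyte and smooth muscle, fibroblast, macrophage and glia lists lay between 4.05 and 5.06.

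On gelatin the cell cycle genes read lower in Fz4-/- cells than in wild type cells, and each of the 42 measured members pointed that way. Averaged over the members, the level was 7.39, 8.89 and 8.88 in Fz4-/- replicates 1, 2 and 3, against 9.56, 9.72 and 9.69 in wild type. The Fz4-/- arrays were all below the wild type arrays, and replicate 1 of Fz4-/- was far below the other two. The median log2 difference of the members was -1.27, which is 41.4% of the wild type signal, with members from -1.94 to -0.49. The median of all genes was -0.004. Past the threshold (an adjusted p below 0.05 over all genes in limma) 19 members fell and 0 rose, while 7.73% of all genes fell, 7.21% rose and 14.9% changed in either direction. At an unadjusted p below 0.05 there were 40 members. The share of all genes at that level is not given here, nor for the later counts at an unadjusted p. The Fz4-/- arrays did not overlap the wild type arrays, and were lower, in 41 of 42 members, with E2f1 as the exception, and the same held for 16.6% of all genes.

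The difference had the same direction on Matrigel. The mean over the members was 7.55, 8.86 and 8.85 in the Fz4-/- arrays, against 9.72 to 9.80 in the wild type arrays. The members' median log2 difference was -1.41, or 37.7% of the wild type signal, and they ran from -2.04 to -0.37, beside an all-gene median of 0.02. Of the 42 members, 22 fell and 0 rose, where 8.77% of all genes fell, 6.91% rose and 15.7% changed in either direction. At an unadjusted p below 0.05 there were 39. The groups did not overlap, with Fz4-/- lower, in 41 of 42 members, against 16.3% of all genes, and Tyms was the exception. No array is shared between the gelatin and the Matrigel comparison of the genotypes, but both use the same pooled estimate of the spread. Replicate 1 of Fz4-/- was the low array on both surfaces, so they were not taken as independent repeats.

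**Figure D1:**
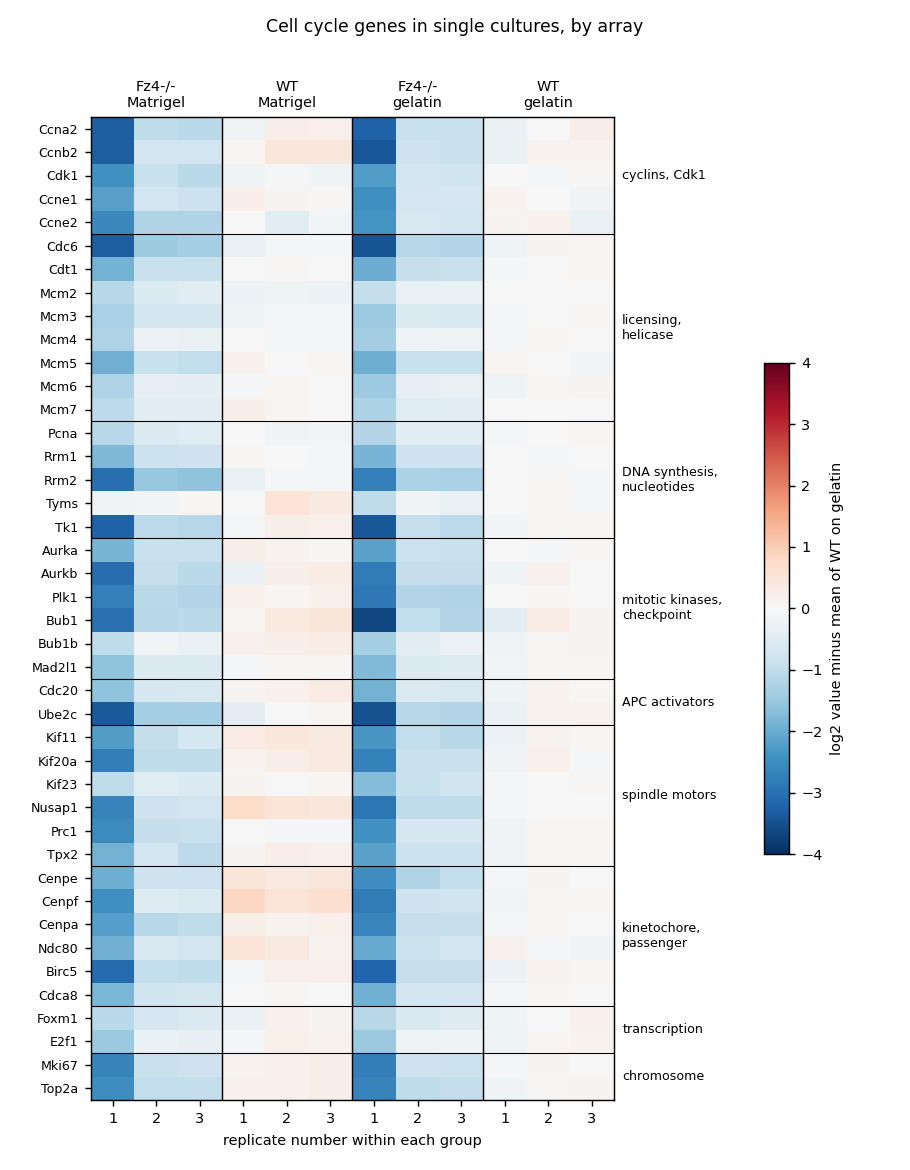
Each row is a cell cycle gene, grouped by role, and each column an array of the single cultures. Colour gives the log2 value minus the gene's mean in wild type cells on gelatin. Fz4-/- arrays lie below the wild type arrays of the same surface for 41 of 42 genes, and replicate 1 of Fz4-/- is the darkest column of each surface.

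How many members passed the threshold depended on how the spread between arrays was handled. With the replicate number as a block, 40 members fell on gelatin and 40 on Matrigel (22.7% and 24.1% of all genes changed in that fit), and the members that did not pass were E2f1 and Mcm4 on gelatin and Mcm4 and Tyms on Matrigel. With replicates 2 and 3 alone the median difference was smaller, -0.86 on gelatin and -0.94 on Matrigel, and 41 of 42 fell on each (27.0% and 26.7% of all genes changed). Tyms on gelatin, at -0.22, and Mcm4 on Matrigel, at -0.20, did not pass in it. With replicates 2 and 3 of a group averaged into 1 sample, 0 members passed on either surface in limma (3.67% and 4.05% of all genes did), although 34 and 36 had an unadjusted p below 0.05 and the medians were -1.51 and -1.66. Leaving out a single array also moved the count, from 5 to 22 on gelatin and from 6 to 23 on Matrigel. The shares of all genes in these fits are not given here. On gelatin it was 9 without Fz4-/- replicate 1, and 11, 6 and 5 without wild type replicates 1, 2 and 3. On Matrigel it was 8 without Fz4-/- replicate 1, and 12, 6 and 9 without wild type replicates 1, 2 and 3. A fit without Fz4-/- replicate 1 of one surface still holds that of the other, which enters the pooled spread. Between arrays of equal replicate number, the median difference over the members was -2.22, -0.87 and -0.84 on gelatin and -2.43, -0.95 and -1.0 on Matrigel for numbers 1, 2 and 3.

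Within the Fz4-/- groups replicate 1 was the low array for these genes. Set against the mean of replicates 2 and 3 of its own group, it was lower by a median of -1.35 on gelatin, with members from -2.56 to -0.54, and 34 of 42 were lower by more than 1 on the log2 scale. The same was true of 287 of all genes (1.58%). On Matrigel the median was -1.22, from -2.52 to -0.11, with 27 members lower by more than 1, against 245 of all genes (1.35%). In wild type cells the median was -0.13 on gelatin, with members from -0.60 to 0.27, and -0.06 on Matrigel, from -0.51 to 0.26, and no member was lower by more than 1. In these bulk samples fewer dividing cells and less of each RNA per dividing cell cannot be told apart.

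**Figure D2:**
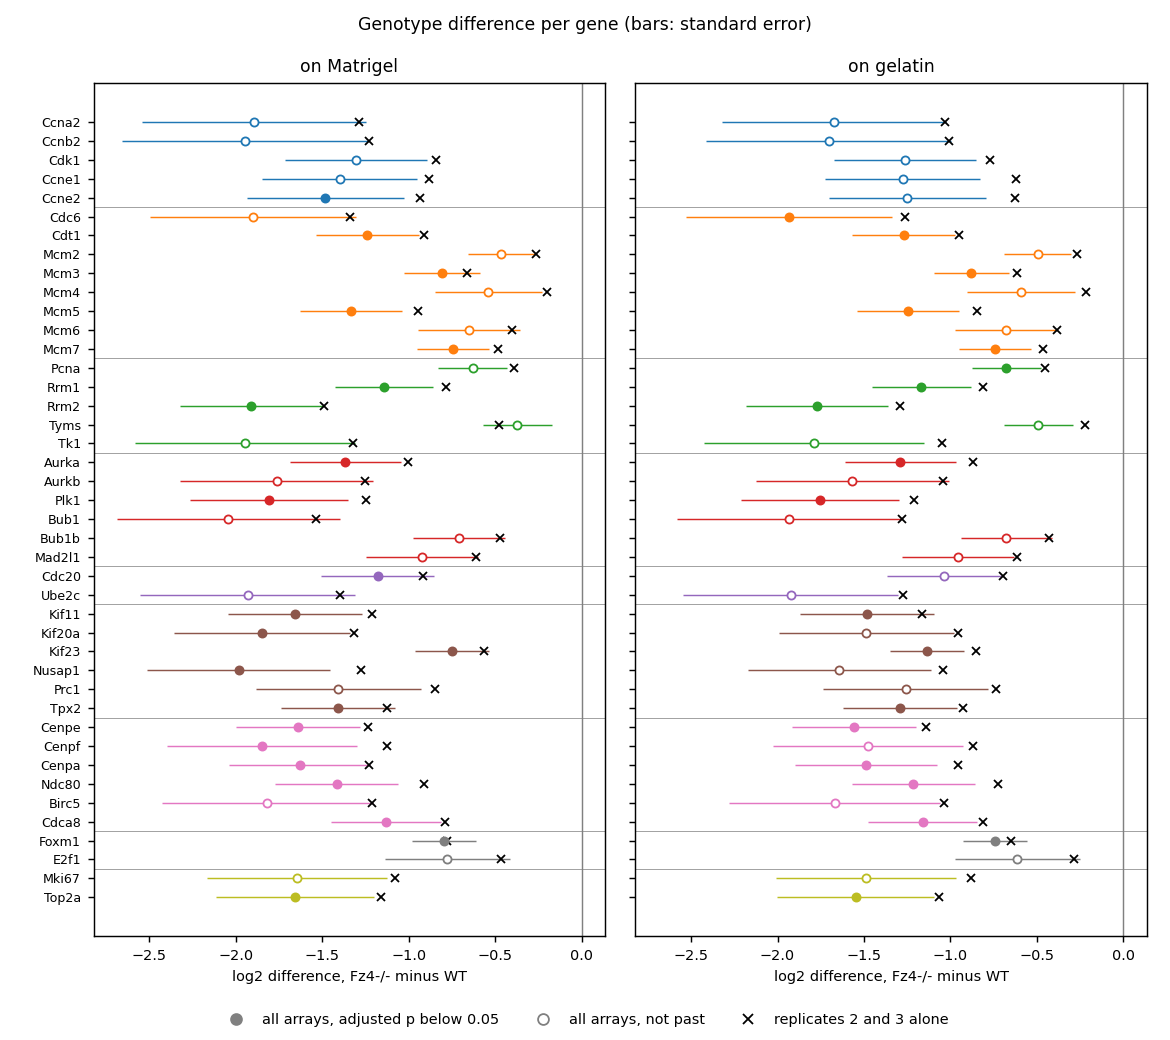
Points are the log2 difference of Fz4-/- minus wild type for each cell cycle gene on gelatin and on Matrigel, with limma's standard error, ordered by role. All 42 points lie below 0 on both surfaces, between -1.94 and -0.49 on gelatin and between -2.04 and -0.37 on Matrigel.

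Among the cyclins and Cdk1, 0 of 5 measured members passed the threshold on gelatin and 1 on Matrigel, with medians of -1.28 and -1.48. Ccnb2, a mitotic B-type cyclin, read 6.43, 8.98 and 8.91 in the Fz4-/- arrays on gelatin, against 9.53, 9.94 and 9.96 in wild type. Ccna2, the cyclin of S phase and early mitosis, read 6.63, 8.96 and 8.96 in Fz4-/- cells, against 9.59, 9.88 and 10.11 in wild type. Both groups were parted, and replicate 1 of Fz4-/- lay far below replicates 2 and 3. The log2 differences were -1.70 ± 0.71 for Ccnb2 (SE, n = 3, adjusted p = 0.146) and -1.67 ± 0.65 for Ccna2 (adjusted p = 0.117), which did not pass. Cdk1, the kinase that starts mitosis, read 8.28, 9.75 and 9.74 in Fz4-/- cells and 10.53, 10.46 and 10.58 in wild type cells. On Matrigel the cyclin of the G1 to S step Ccne2 was the member that fell, by -1.48 ± 0.45 (adjusted p = 0.0464).

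The origin licensing factors and helicase subunits had smaller differences, with a median of -0.81 on gelatin and -0.78 on Matrigel. Of 8 members, 5 fell on gelatin (Cdc6, Cdt1, Mcm3, Mcm5 and Mcm7) and 4 on Matrigel (Cdt1, Mcm3, Mcm5 and Mcm7). Cdc6, a loader of the helicase, read 5.99, 8.31 and 8.27 in the Fz4-/- arrays on gelatin, against 9.27, 9.56 and 9.53 in wild type. Its difference of -1.94 ± 0.60 (adjusted p = 0.0492) was the largest among the 42 members on gelatin. Cdt1, its partner in loading, read 9.57, 10.63 and 10.67 in Fz4-/- cells and 11.47, 11.58 and 11.62 in wild type, a difference of -1.27 ± 0.30 (adjusted p = 0.0138). Mcm7, a helicase subunit, read 10.95, 11.73 and 11.75 in Fz4-/- cells and 12.24, 12.20 and 12.20 in wild type, a difference of -0.74 ± 0.21 (adjusted p = 0.0335). Cdt1 and Mcm7 show the same layout, with a tight wild type group and all Fz4-/- arrays under it. Mcm4, another subunit of the ring, had Fz4-/- replicates 2 and 3 at 11.19 and 11.16, close to wild type at 11.31, 11.40 and 11.38, and did not pass (adjusted p = 0.259).

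Of the 5 genes of DNA synthesis and nucleotide supply, 3 fell on gelatin (Rrm2, Rrm1 and Pcna) and 2 on Matrigel (Rrm2 and Rrm1). Rrm2, the subunit of ribonucleotide reductase that cycles with S phase, read 8.92, 10.39 and 10.38 in the Fz4-/- arrays on gelatin, against 11.66, 11.73 and 11.62 in wild type. Every Fz4-/- array was more than 1 log2 unit below every wild type array, and the difference was -1.77 ± 0.41 (adjusted p = 0.0133). Tk1, the S phase thymidine kinase, read 6.15, 8.61 and 8.48 in Fz4-/- cells and 9.41, 9.58 and 9.61 in wild type, a difference of -1.79 ± 0.64 that did not pass (adjusted p = 0.088). Pcna, the sliding clamp of the DNA polymerases, read 11.92, 12.65 and 12.66 in Fz4-/- cells and 13.04, 13.07 and 13.15 in wild type, a smaller but tighter difference of -0.68 ± 0.20 (adjusted p = 0.0405). Tyms, thymidylate synthase, had the smallest difference, -0.49 on gelatin and -0.37 on Matrigel.

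The mitotic kinases and checkpoint genes had medians of -1.43 on gelatin and -1.57 on Matrigel, and 2 of 6 fell on each, Plk1 and Aurka. Plk1, the Polo kinase, read 5.82, 7.48 and 7.45 in the Fz4-/- arrays on gelatin, against 8.65, 8.70 and 8.65 in wild type, a difference of -1.75 ± 0.46 (adjusted p = 0.0235). Bub1, a spindle checkpoint kinase, read 5.10, 7.74 and 7.57 in Fz4-/- cells and 8.33, 9.03 and 8.85 in wild type, which gives -1.93 ± 0.65 (adjusted p = 0.0686). Bub1 had a difference as large as that of Plk1 with more spread in both groups. Mad2l1, the checkpoint protein Mad2, read 8.34, 9.52 and 9.58 in Fz4-/- cells and 9.98, 10.14 and 10.18 in wild type. Of the 2 genes that act with the anaphase-promoting complex, neither passed on gelatin and Cdc20, its activator in mitosis, fell on Matrigel by -1.18 ± 0.33 (adjusted p = 0.0308). On gelatin Cdc20 read 8.40, 9.73 and 9.67 in Fz4-/- cells and 10.11, 10.45 and 10.35 in wild type. Ube2c, the ubiquitin-conjugating enzyme that serves the complex, read 8.15, 10.54 and 10.47 in Fz4-/- cells and 11.38, 11.78 and 11.78 in wild type, a difference of -1.92 ± 0.62 (adjusted p = 0.0598).

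Of 6 spindle motors and microtubule proteins, 3 fell on gelatin (Kif23, Kif11 and Tpx2) and 5 on Matrigel, where Kif20a and Nusap1 passed too. Nusap1, which bundles spindle microtubules, read 5.72, 7.60 and 7.61 in the Fz4-/- arrays on gelatin, against 8.57, 8.64 and 8.65 in wild type. Kif20a, a kinesin of cytokinesis, read 5.75, 7.57 and 7.57 in Fz4-/- cells and 8.30, 8.64 and 8.41 in wild type. Prc1, which holds the central spindle together, read 7.32, 9.08 and 9.09 in Fz4-/- cells and 9.62, 9.82 and 9.83 in wild type. The Fz4-/- arrays of all 3 genes were under the wild type arrays. The log2 differences of Nusap1 were -1.64 ± 0.53 on gelatin (adjusted p = 0.0592) and -1.98 ± 0.53 on Matrigel (adjusted p = 0.0254). Kif23, a further kinesin of cytokinesis, fell by 1.14 ± 0.21 on gelatin (adjusted p = 0.00404).

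Centromere, kinetochore and passenger complex genes fell in 4 of 6 cases on gelatin (Cenpe, Cenpa, Ndc80 and Cdca8) and in 5 of 6 on Matrigel, where Cenpf was added. Cenpe, a kinetochore motor, read 6.10, 7.39 and 7.58 in the Fz4-/- arrays on gelatin, against 8.49, 8.68 and 8.57 in wild type, a difference of -1.56 ± 0.36 (adjusted p = 0.0125). Birc5, survivin of the chromosomal passenger complex, read 6.36, 8.62 and 8.60 in Fz4-/- cells and 9.29, 9.68 and 9.61 in wild type, a difference of -1.67 ± 0.61 that did not pass (adjusted p = 0.0961). Cdca8, borealin of the same complex, read 7.44, 8.59 and 8.59 in Fz4-/- cells and 9.30, 9.41 and 9.40 in wild type, a difference of -1.16 ± 0.32 (adjusted p = 0.0291). Cdca8 passed with a smaller difference than Birc5, and its standard error was smaller too.

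Of the 2 transcription factors, Foxm1, the activator of mitosis genes, fell and E2f1, an activator of replication genes, did not pass. Foxm1 read 6.77, 7.26 and 7.36 in the Fz4-/- arrays on gelatin, against 7.69, 7.89 and 8.03 in wild type, a difference of -0.74 ± 0.18 (adjusted p = 0.0186). E2f1 read 6.70, 8.0 and 8.03 in Fz4-/- cells and 7.98, 8.28 and 8.32 in wild type, and is the member whose groups overlapped on gelatin (-0.61 ± 0.36, adjusted p = 0.325). Among the chromosome proteins, Top2a, the topoisomerase that untangles sister chromatids, read 7.88, 9.55 and 9.60 in Fz4-/- cells and 10.40, 10.62 and 10.66 in wild type. It fell by 1.55 ± 0.46 (adjusted p = 0.041). Mki67, the Ki-67 antigen used as a marker of cycling cells, read 7.35, 9.30 and 9.25 in Fz4-/- cells and 10.05, 10.22 and 10.10 in wild type, a difference of -1.49 ± 0.52 that did not pass (adjusted p = 0.082).

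**Figure D3:**
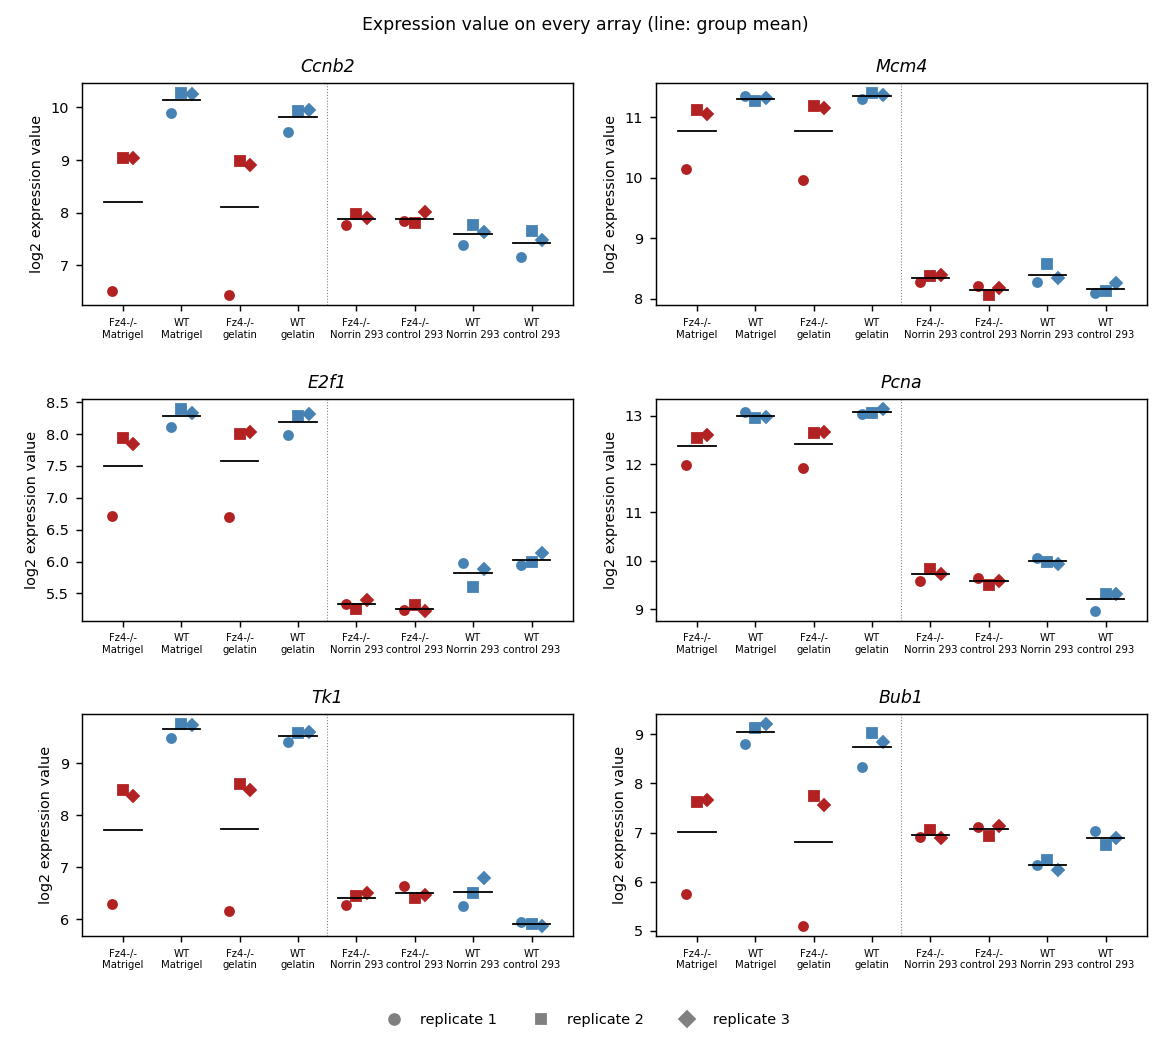
Points are log2 values of single arrays for selected cell cycle genes in the 8 groups, with a bar at the group mean. In the single cultures replicate 1 of Fz4-/- lies below replicates 2 and 3. For Ccnb2 all Fz4-/- arrays lie below wild type, while for E2f1 on gelatin replicates 2 and 3 (8.0 and 8.03) overlap wild type (7.98 to 8.32).

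Mitosis genes had larger differences than replication genes. On gelatin the 20 members of the mitosis lists had a median of -1.48 and the 13 of the replication lists -0.88. On Matrigel the medians were -1.63 and -0.81. With replicates 2 and 3 alone the order was the same, at -0.94 and -0.61 on gelatin and -1.17 and -0.66 on Matrigel. This difference between the lists was not tested. Another 54 probe sets exist for 29 of the members, and 48 of them were lower in Fz4-/- cells on gelatin. The 31 of these that lie above the all-gene median level of 6.32 were all lower, by -1.94 to -0.46. The 6 that pointed higher (of Cenpa, Tyms, Cdt1, Top2a and Bub1) have mean levels of 3.79 or less.

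Genes that belong to the same pathways but are not members were read from further lists. Of 22 other replication genes, 13 fell on gelatin and 14 on Matrigel, among them the helicase partners Gins2 (-1.45 on gelatin) and Gins1 (-1.31), the initiation factor Mcm10 (-1.46) and the primase subunit Prim1 (-1.39). Of 35 other mitosis genes, 22 fell on gelatin and 24 on Matrigel, among them the microtubule-depolymerizing kinesin Kif2c (-1.73 on gelatin and -2.02 on Matrigel). None of either list rose. Of all genes, 7.73% fell on gelatin and 8.77% on Matrigel. G1 cyclins and kinases moved less, with 3 of 12 lower on each surface, on gelatin Cdk6 (-0.72), Cdc25a (-0.66) and Cdk2 (-0.54). Among 9 other E2F and MuvB-linked factors the B-Myb gene Mybl2 (-1.54) and the MuvB subunit Lin54 (-0.74) fell on gelatin.

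No inhibitor of the cyclin-dependent kinases passed as higher in Fz4-/- cells. Of 7 measured, Cdkn1c (p57) fell by 1.23 and Cdkn2d (p19) by 0.79 on gelatin, and 0 rose in limma. Cdkn1a (p21), the p53-responsive inhibitor, differed by -0.01 ± 0.11 and Cdkn1b (p27) by -0.17 ± 0.15. The INK4 inhibitors Cdkn2a, Cdkn2b and Cdkn2c differed by -0.32 ± 0.22, 0.13 ± 0.17 and -0.93 ± 0.34 without passing. Of 14 p53 target genes, Plk2, a Polo-like kinase, rose by 0.52 and Pmaip1, the pro-apoptotic Noxa, fell by 1.72. Among the endothelial markers 3 of 10 rose and 0 fell in Fz4-/- cells on each surface, where 7.21% of all genes rose on gelatin and 6.91% on Matrigel. Their list mean was 10.71 to 11.01 in Fz4-/- arrays and 10.59 to 10.80 in wild type arrays on gelatin. The mean of the fibroblast list was 4.28 to 4.49 in Fz4-/- arrays and 4.05 to 4.79 in wild type arrays there, and that of the macrophage list was 4.46 to 4.82 in Fz4-/- and 4.68 to 4.99 in wild type. The part of marker levels in the cell cycle result was not tested.

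Since the members move together, the promoters of 4 of them are shown as examples of the letters that E2F, MuvB and NF-Y factors are known to read. RefSeq promoters on GRCm38.p6 (250 bases before to 50 after the annotated start) were matched for 35 measured members by symbol. The letters searched on both strands were the cell cycle homology region, TTTGAA, the CCAAT box, CCAAT, and E2F sites written as TTTGGCGC, TTTCCCGC or TTTCGCGC. The stretches below are the 150 bases before the start, 5′ to 3′ on the gene's strand, with matches on either strand in capitals. Cdk1 (chr10:69352913-69353062, minus strand) holds all 3 kinds of match, Ube2c (chr2:164769779-164769928, plus strand) and Top2a (chr11:99024190-99024339, minus strand) are mitosis genes, and Mcm6 (chr1:128359706-128359855, minus strand) is a helicase gene.
Cdk1: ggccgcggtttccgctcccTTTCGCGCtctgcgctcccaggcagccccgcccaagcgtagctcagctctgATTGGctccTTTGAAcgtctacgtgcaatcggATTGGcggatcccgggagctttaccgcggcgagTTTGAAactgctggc
Ube2c: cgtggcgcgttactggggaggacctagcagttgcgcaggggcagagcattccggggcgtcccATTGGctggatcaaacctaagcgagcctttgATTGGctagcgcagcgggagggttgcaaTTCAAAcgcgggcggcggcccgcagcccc
Top2a: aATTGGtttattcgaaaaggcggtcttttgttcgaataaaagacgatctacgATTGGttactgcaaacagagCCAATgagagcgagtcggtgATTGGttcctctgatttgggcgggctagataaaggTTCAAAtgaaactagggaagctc
Mcm6: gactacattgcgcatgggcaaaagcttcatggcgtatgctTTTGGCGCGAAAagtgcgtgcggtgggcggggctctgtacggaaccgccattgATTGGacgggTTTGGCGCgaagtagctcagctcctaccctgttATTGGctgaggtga

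TTTGAA was present in the promoters of 17 of the 35 members (48.6%), against 20.2% of the 27025 genes in the table and 17.9% of its 32851 promoters. It was found in 1 of 12 replication members, Mcm2, and in 16 of 23 other members. The E2F letters were present in 7 of 35 (20.0%), against 2.12% of genes and 1.84% of promoters, namely in 6 of 12 replication members (Cdc6, Cdt1, Mcm3, Mcm5, Mcm6 and Mcm7) and in 1 of 23 others, Cdk1. E2F matches on opposite strands overlap in Mcm6 and Mcm5. CCAAT was present in 25 of 35 (71.4%), against 41.1% of genes and 37.4% of promoters, in 8 of 12 replication members and 17 of 23 others. The 17 members with TTTGAA had a median genotype difference of -1.29 on gelatin and the 18 without it -1.26. On Matrigel the medians were -1.42 and -1.29. These matches are letters in a window and say nothing of binding.

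On Matrigel in low serum no cell cycle gene passed as changed against gelatin, in either genotype. In Fz4-/- cells 0 of 42 members passed the threshold in limma and 0 had an unadjusted p below 0.05, while 19.7% of all genes changed. In wild type cells the counts were also 0 and 0, and 18.4% of all genes changed. The fit pools the spread of the 4 groups, so the spread that the low Fz4-/- replicate 1 adds enters the wild type test too. The standard deviation of the mean over the members was 0.86 in Fz4-/- and 0.09 in wild type arrays on gelatin, and 0.75 and 0.04 on Matrigel. The median log2 difference of Matrigel minus gelatin was 0.02 in Fz4-/- cells, beside an all-gene median of -0.05, and 0.09 in wild type cells, beside -0.05. Both comparisons use the gelatin arrays of their genotype, which the genotype comparison uses too.

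With replicates 2 and 3 alone, which lie closer together, 9 members changed in Fz4-/- cells (30.2% of all genes changed). Kif23, Cenpf and Nusap1 rose by 0.31, 0.27 and 0.22, while Ccne2, Rrm2, Prc1, Cdc6, Mcm2 and Ube2c fell by 0.52 to 0.21. In wild type 7 members changed (28.0% of all genes). Cenpf (0.53), Tyms (0.45), Nusap1 (0.45), Cenpe (0.36), Ndc80 (0.34) and Ccnb2 (0.31) rose, and Mcm2 fell by 0.21. Cenpf, a kinetochore protein, read 8.52, 8.19 and 8.34 in wild type cells on Matrigel, against 7.57, 7.72 and 7.76 on gelatin, so the groups did not overlap. In Fz4-/- cells it read 5.22, 7.18 and 7.10 on Matrigel, against 4.88, 6.85 and 6.90 on gelatin. Matrigel and gelatin arrays did not overlap, with Matrigel higher, for 1 member in Fz4-/- cells and 11 in wild type cells, against 15.8% and 14.3% of all genes. Matrigel was lower without overlap for 0 members in Fz4-/- cells and 4 in wild type cells, against 23.4% and 24.2% of all genes. By phase, the 20 mitosis members had a median of 0.07 in Fz4-/- cells and 0.19 in wild type cells, where 18 of 20 pointed up. The 13 replication members had -0.02 in Fz4-/- cells and -0.01 in wild type cells. The genotype by Matrigel interaction passed for 0 of 42 members in limma, 0 had an unadjusted p below 0.05, and 0.0165% of all genes passed.

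**Figure D4:**
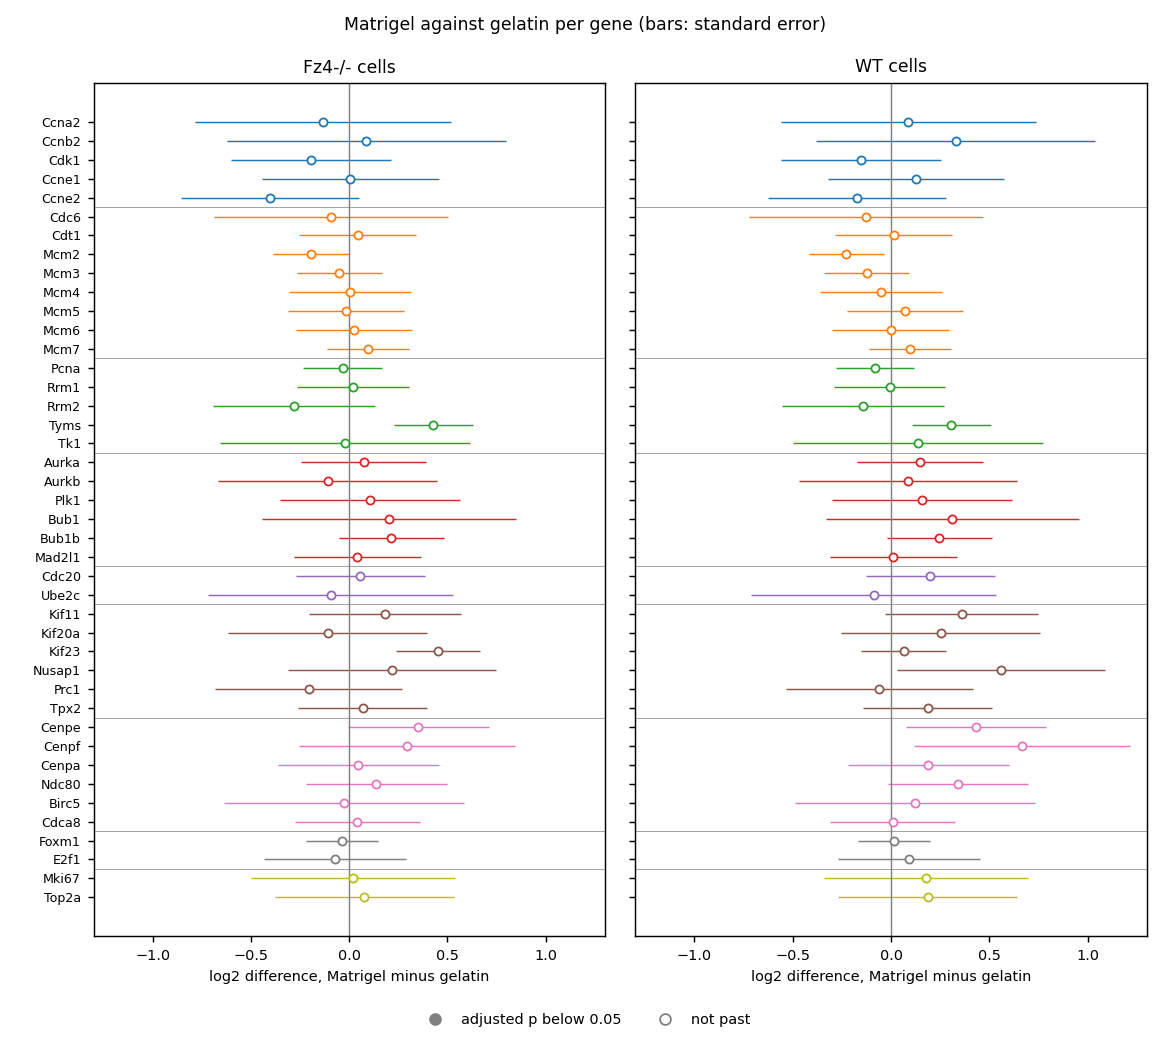
Points are the log2 difference of Matrigel minus gelatin for each cell cycle gene in Fz4-/- and in wild type cells, with limma's standard error. The medians are 0.02 in Fz4-/- and 0.09 in wild type cells, and no point passed the threshold. A gene's error bar has the same length in both panels, since the fit pools the spread of the 4 groups.

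Regulators outside the members did change on Matrigel in low serum. The p21 gene Cdkn1a fell by 0.43 in Fz4-/- cells and by 0.45 in wild type cells. The G1 cyclin gene Ccnd2 fell by 1.24 in Fz4-/- cells and by 0.72 in wild type cells, and Myc, a growth-related transcription factor listed with the G1 genes, by 0.80 and 0.83. In wild type cells Cdk6 fell by 0.62 and Ccnd1 by 0.54. The mitotic inhibitor kinase Wee1 fell by 0.66 in Fz4-/- cells.

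In co-culture with Norrin-making HEK293 cells, 0 of 42 members changed in Fz4-/- cells, which lack the receptor (limma, 1 with an unadjusted p below 0.05, and 0.456% of all genes passed). In wild type cells 7 changed, of which 5 rose and 2 fell, and 14 had an unadjusted p below 0.05. Of all genes there, 9.57% changed, 5.39% upward and 4.18% downward. The 7 members are 16.7% of the 42, and whether that share differs from the share of all genes was not tested. The genes that rose were Pcna, Kif20a, Tk1, Ccne2 and Cenpf, and those that fell were Bub1 and Aurkb, so S phase and mitosis genes stand among the rises.

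Pcna read 10.05, 9.97 and 9.94 in wild type cells with Norrin, against 8.97, 9.32 and 9.32 with control cells. No array overlapped, and the difference was 0.79 ± 0.11 (SE, n = 3, adjusted p = 0.000166). In Fz4-/- cells it read 9.59, 9.83 and 9.73 with Norrin and 9.65, 9.50 and 9.59 with control cells. Tk1 read 6.25, 6.50 and 6.80 in wild type cells with Norrin and 5.95, 5.90 and 5.87 with control cells (0.61 ± 0.13, adjusted p = 0.0043). The Tk1 arrays of Fz4-/- cells overlapped, at 6.27, 6.45 and 6.50 with Norrin and 6.64, 6.41 and 6.47 with control cells. Ccne2 read 4.25, 4.02 and 3.95 with Norrin in wild type, against 3.75, 3.42 and 3.30 with control cells (0.59 ± 0.13, adjusted p = 0.00589), which is dim, below the gene median of 4.44 to 4.5 on these arrays.

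Among the mitosis genes, Bub1 read 6.35, 6.44 and 6.23 in wild type cells with Norrin, against 7.04, 6.74 and 6.89 with control cells, and fell by 0.55 ± 0.11 (adjusted p = 0.00318). In Fz4-/- cells it read 6.92, 7.06 and 6.89 with Norrin and 7.11, 6.94 and 7.14 with control cells. Aurkb, the kinase of the chromosomal passenger complex, read 5.57, 5.92 and 5.88 with Norrin in wild type and 6.04, 6.25 and 6.27 with control cells (-0.40 ± 0.11, adjusted p = 0.0324). Kif20a read 5.80, 6.48 and 6.44 with Norrin in wild type and 5.19, 5.71 and 5.86 with control cells, which overlap (0.66 ± 0.18, adjusted p = 0.025). Cenpf read 5.53, 5.71 and 5.98 with Norrin in wild type and 5.14, 5.37 and 5.36 with control cells (0.45 ± 0.13, adjusted p = 0.0302).

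**Figure D5:**
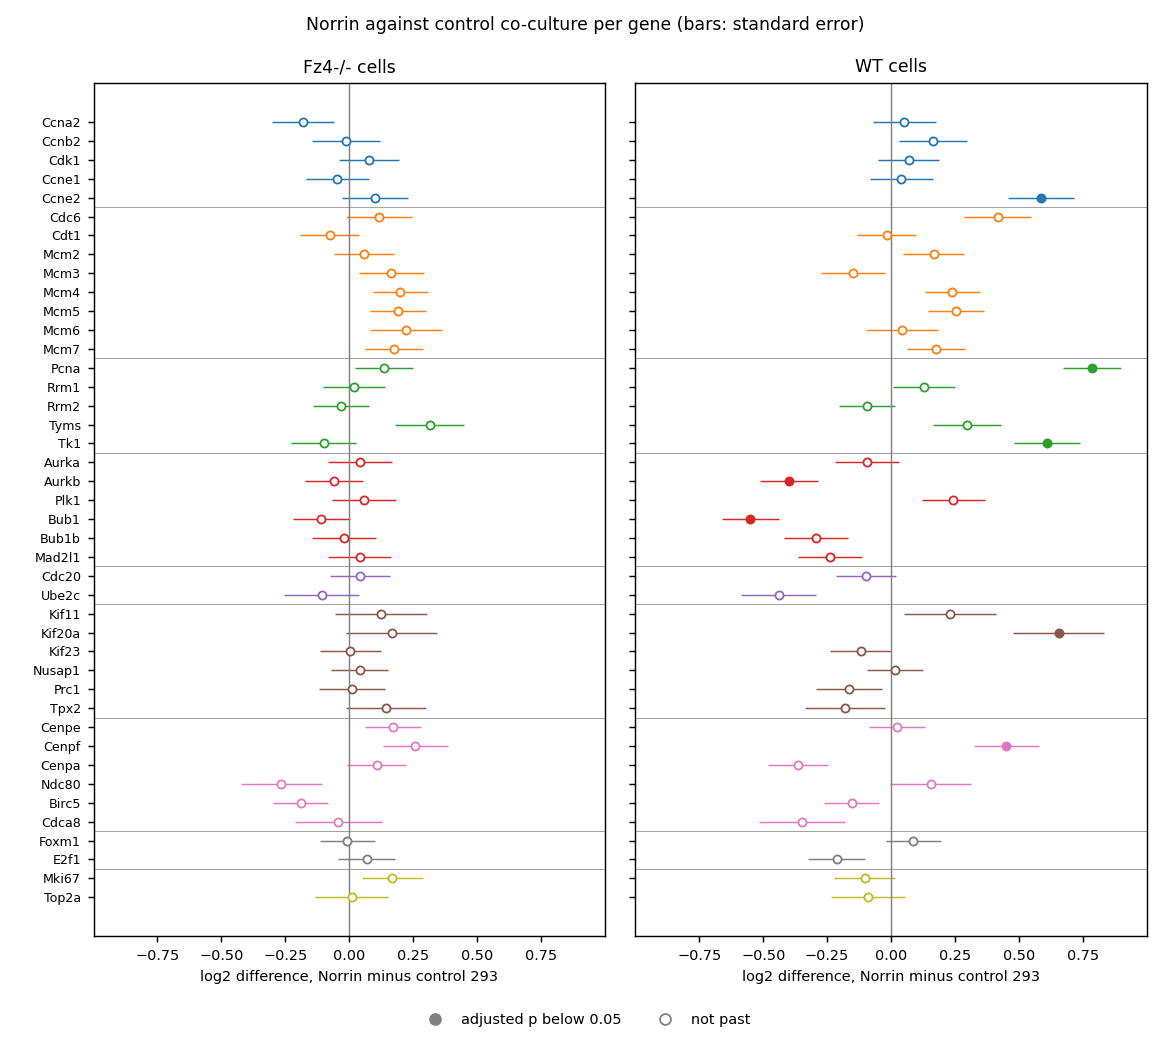
Points are the log2 difference of Norrin minus control co-culture for each cell cycle gene in Fz4-/- and in wild type cells, with limma's standard error. In wild type cells Pcna (0.79) lies highest and Bub1 (-0.55) lowest, and the Fz4-/- points lie between -0.27 and 0.32. Filled points passed the threshold.

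Whether Norrin acted differently in the genotypes was tested as an interaction, in which 2 of 42 members and 2.12% of all genes passed. The interaction, Fz4-/- response minus wild type response, was -0.65 ± 0.16 for Pcna (adjusted p = 0.042) and -0.71 ± 0.18 for Tk1 (adjusted p = 0.0491). Endothelial markers moved in the same arrays. In wild type cells 8 of 10 rose with Norrin, against 5.39% of all genes. The list mean was 7.03 to 7.33 with Norrin and 6.34 to 6.58 with control cells. In Fz4-/- cells 0 of 10 passed, at 7.73 to 7.92 with Norrin and 7.54 to 7.67 with control cells. The share of mouse cells in each culture was not measured, and the part of the markers' rise in the cell cycle result was not tested.

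Genes of the companion lists also changed with Norrin in wild type cells, where 9.57% of all genes changed, 5.39% upward and 4.18% downward. Whether the shares of the lists differ from these was not tested. Of 14 p53 targets, 5 fell and 1 rose, among them Pmaip1 (-1.33), Mdm2, the p53 ubiquitin ligase (-0.93, but 0.10 with suffix-free probe sets), Eda2r (-0.69) and the stress gene Sesn1 (0.48). Lin54 fell by 1.12, and the repressor E2f7 rose by 0.51. Of 12 G1 genes the kinases Cdk4 (0.61) and Cdk6 (0.39) and the cyclin Ccnd2 (0.44) rose, and so did the inhibitor Cdkn2b (0.45). Of 35 other mitosis genes 1 rose and 6 fell, among them the condensin subunit Ncapg (-0.63). Of 22 other replication genes 2 rose and 2 fell, with the polymerase subunit Pola1 at 0.75 and Pold1 at -0.54.

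Between genotypes in co-culture the members did not read uniformly lower. With Norrin-making cells 10 fell and 4 rose in Fz4-/- cells, where 38.4% of all genes fell, 11.5% rose and 49.9% changed in all. With control cells 14 fell and 8 rose, where 38.8% of all genes fell, 12.1% rose and 50.9% changed. The median log2 difference was -0.11 with Norrin and -0.12 with control cells, beside all-gene medians of -0.20 for both. The split depended on scaling. After quantile normalization it was 7 lower and 7 higher with Norrin and 12 lower and 13 higher with control cells, and after median centring 3 lower and 8 higher, and 9 lower and 12 higher. The distribution of values differs between the genotypes' co-culture arrays. The sample titles name no array set or batch. An effect of the arrays or of the share of human RNA therefore cannot be told apart from genotype. Probe sets there may also bind human RNA, which was not tested.

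In co-culture 5 of the 8 origin licensing and helicase genes were lower in Fz4-/- cells with either kind of HEK293 cell. Of all genes, 38.4% fell with Norrin and 38.8% with control cells, and whether the shares differ was not tested. Mcm2 differed by -0.91 ± 0.12 with Norrin and -0.80 ± 0.12 with control cells, and Mcm3, Mcm5, Mcm6 and Cdt1 were the others. After median centring Mcm2 and Mcm5 still passed with both, Mcm3 with control cells only, and Mcm6 and Cdt1 with neither. E2f1 differed by -0.49 with Norrin, which did not pass after median centring, and by -0.77 with control cells. Tyms was higher in Fz4-/- cells by 1.17 with Norrin and 1.16 with control cells, at dim levels of 3.77 to 4.32 in Fz4-/- and 2.52 to 3.21 in wild type arrays, and Rrm2 by 0.50 and 0.44, and both passed under each scaling. The other probe sets of Tyms did not show the rise with control cells, at 0.03, -0.04 and -0.40. Those of Rrm2 did, at 0.97 and 1.10. Tyms and Rrm2 pointed the other way in the single cultures, where Rrm2 differed by -1.77 on gelatin. The mean over the members was 6.72 to 6.87 with Norrin and 6.71 to 6.80 with control cells in Fz4-/- arrays, against 6.75 to 7.01 with Norrin and 6.76 to 6.92 with control cells in wild type arrays. These ranges overlap, unlike those of the single cultures.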

How the data were processed

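RNA was hybridised to 24 Affymetrix mouse arrays. The deposited values are log2 intensities made with RMA by the submitters, per the submitters' processing notes. They give neither a version nor the set of arrays normalized in common. From the 45101 probe sets, 34945 with 1 symbol were kept. The others were 64 controls, 932 with several symbols and 9160 with none. RefSeq gene names matched 34741 by gene ID. The probe set with the highest mean stood for each of 18193 genes.

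Group means were fitted with limma 3.58.1 (R 4.3.3, package data.table, version 1.17.8). The 12 single-culture arrays and the 12 co-culture arrays were fitted apart, with 8 residual degrees of freedom each. Adjustment was by Benjamini-Hochberg over all genes. Errors are standard errors, with n = 3 arrays a group. An exact permutation test (two-sided) of 1 gene at this size cannot go below p = 0.1. The number of arrays limits precision. Figures and sequence searches used matplotlib 3.10.9, numpy 2.4.6 and pandas 2.3.3 in Python 3.11.15. The fit was tested on simulated data.

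The members and lists were chosen with earlier results of these data known. Array values are given in each role list for the member with the highest mean and the 2 with the largest genotype difference on gelatin. Past the threshold, up to 8 members in each direction are named in Matrigel and co-culture comparisons, and up to 4 genes per further list, with all Cdk inhibitors and Fzd4. Genes of the further lists were left out for the genotypes in co-culture, although some passed there in either direction. Cdkn1c differed by -3.64 with Norrin and -3.29 with control cells, and Ccnd1 by 3.54 and 3.59. Of all genes, 49.9% and 50.9% changed there. Mcm4, Tyms and other members outside this rule were named after their values were seen.

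Pairing of arrays with equal numbers was checked through the correlation of their deviations from group means. The correlations were 0.243 to 0.718 in the single cultures. Arrays correlated best with their own number in 4 of 6 cases for the genotypes on gelatin and 5 of 6 on Matrigel. For Matrigel against gelatin it was 2 of 6 in wild type and 3 of 6 in Fz4-/- cells. Since replicate 1 stood apart in these groups, positive correlations can arise without pairs, and the check cannot settle the pairing. The labels do not give it either. Replicate number was therefore a block in an alternative fit only. They were 0.100 to 0.361 for Norrin in wild type, 0.138 to 0.372 for the genotypes with Norrin, -0.186 to 0.006 for Norrin in Fz4-/- cells and -0.048 to 0.066 for the genotypes with control cells. Alternatives were quantile normalization, median centring, other rules for probe sets, only genes above the median level, only the arrays compared, the replicate block, replicates 2 and 3 alone, each array left out, and, chosen after seeing the data, replicates 2 and 3 averaged into 1.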

Additional observations from a re-analysis of the deposited data

Results flagged for a closer look

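The Norrin response differed between Fz4-/- and wild type cells, by the interaction test, in 6 genes of the cell cycle lists. Values are the log2 response in Fz4-/- cells minus that in wild type cells. Among the members the interaction was -0.65 for Pcna and -0.71 for Tk1. Pcna passed the threshold in 7 of 20 alternatives, with values of -0.77 to -0.41 and adjusted p of 0.028 to 0.216. Tk1 passed in 6 of 20, with values of -0.84 to -0.57 and adjusted p of 0.00766 to 0.343.

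Among the companion genes the interaction was 1.38 for Pmaip1, 1.14 for Mdm2, 0.94 for Eda2r and 1.15 for Lin54, each lower with Norrin in wild type cells. Pmaip1 passed in 20 of 20 alternatives, with values of 1.31 to 1.49 and adjusted p of 0.000126 to 0.0112. Mdm2 passed in 18, with values of 0.01 to 1.26 and adjusted p of 0.000642 to 0.996, and the value of 0.01 came from the probe sets without a cross-hybridization suffix. Eda2r passed in 13, at 0.78 to 1.08 (adjusted p 0.00529 to 0.245), and Lin54 in 12, at 0.57 to 1.34 (0.00728 to 0.134). Pmaip1 read 3.04, 3.03 and 2.72 with Norrin and 2.83, 2.97 and 2.85 with control cells in Fz4-/- arrays, against 5.85, 5.69 and 5.62 with Norrin and 7.13, 6.84 and 7.19 with control cells in wild type arrays. Its Fz4-/- values lie below the gene median of those arrays (4.19 to 4.31), where a further fall may not be measurable. Mdm2 read 6.91, 7.49 and 7.33 with Norrin in wild type, against 7.99, 8.20 and 8.33 with control cells.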

How the results depend on the processing

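Of 9284 values of named genes under alternatives (592 results), 8514 stayed on their side of the threshold, 540 no longer passed and 222 newly passed. The 8514 include changes of direction where neither the main nor the alternative value passed. A further 8 changed direction where the main or the alternative value passed, and the cause was not tested. Of those 8, the values were 0.0045 (Bub1b) and -0.3445 (Tpx2) for the genotypes with Norrin under the mean of probe sets. Without suffixed probe sets they were 0.0298 (Cdk2, genotypes on Matrigel), 0.1114 (Cdk2, genotypes on gelatin), 0.8905 and 0.8082 (Cenpa, genotypes with Norrin and with control cells), -0.0515 (Dut, Norrin in wild type) and 0.0986 (Mdm2, same). With the replicate block 40 members passed for the genotypes on gelatin and 40 on Matrigel, and the block moved no other count by over 1.5 times. With replicates 2 and 3 alone the counts were 41 and 41, 9 for Matrigel in Fz4-/-, 7 for Matrigel in wild type and 1 for the Norrin interaction. With replicates 2 and 3 averaged they were 0 and 0, 2 for Norrin in wild type and 0 for its interaction. With only the arrays compared, 3 members passed for Matrigel and 3 for Norrin in wild type. Centring gave 0 and suffix-free probe sets 1 for the Norrin interaction. On Matrigel quantile normalization gave 30 for the genotypes. Leaving out each array gave 5 to 22 on gelatin, 6 to 23 on Matrigel, 10 to 17 with Norrin, 19 to 23 with control cells (genotypes), 6 to 8 for Norrin in wild type, 0 to 1 for its interaction, and 0 for the others. Pcna passed for Norrin in wild type in 15 of 15 alternatives, Tk1 and Bub1 in 14 of 15, Ccne2 in 12 of 14, Kif20a in 9 of 14, Cenpf in 9 of 15 and Aurkb in 8 of 14. In co-culture signals are lower: array medians over genes were 4.19 to 4.31 in Fz4-/- and 4.44 to 4.5 in wild type arrays, against 6.19 to 6.42 in single cultures.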
